A study of Homo sapiens with 6 samples.

Results

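NRF2 occupancy that appeared inside gene bodies with CDDO-Im was described here in cells of the established human microglial line HMC3. Chromatin immunoprecipitation and sequencing (ChIP-seq) with an antibody to NRF2 gave 2 libraries of cells exposed for 4 h to 30 nM CDDO-Im, a triterpenoid compound that activates NRF2, and 2 vehicle libraries. All libraries come from the same cell line with no genetic change named in the labels, and whether replicates are separate cultures is not stated, so p-values measure only the spread between these libraries. The labels repeat 1 treatment text for all samples, and group membership was read from the titles. Peak lists do not show expression, so the microglial identity of the cells was not checked against markers here.

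Peaks of the 4 lists on chromosomes 1 to 22 and X were joined where they overlapped by 1 bp or more, which gave 19331 regions. Megabases holding more than 20 joined regions were left out, which kept 7386 regions. A region was called gained when both CDDO-Im lists and neither vehicle list held it. It was called a gene-body region when its summit, the position of the highest listed signal, lay inside a protein-coding gene and over 2500 bp from every end of such a gene. These rules left 592 gained gene-body regions in 578 genes. They are 592 of the 1428 gained regions, or 41.5% (exact 95% binomial interval 38.9% to 44.1%, counting error only). Another 42 gained regions lay inside a gene but near a gene end, and 794 lay outside genes. Gained regions were 19.4% of the 3047 gene-body regions and 19.3% of all 7386 regions, a description of the lists that chose them.

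NRF2 is a basic leucine zipper transcription factor that binds DNA together with a small MAF protein at antioxidant response elements. Under basal conditions KEAP1 directs NRF2 to degradation, and electrophiles such as CDDO-Im modify KEAP1 so that NRF2 accumulates in the nucleus. Its targets include genes of glutathione and thioredoxin metabolism, drug detoxification, NADPH supply and iron handling, and it is known to act from elements within introns as well as from promoters. The reference table used here gives no exons, so the regions are described as inside genes, not as intronic or exonic.

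Genome sequence under most regions was not used here, but RefSeq windows of 300 bases around annotated transcript starts (GRCh38.p14, 250 bases before to 50 after the start) overlapped 6 of the 592 regions. The summit lay in such a window in 3 regions, each at a transcript start inside the gene and away from its outer ends. Those windows are shown because they hold the sequence beneath the signal. Capitals mark matches to TGACNNNGC, the core of the antioxidant response element, or to TGANTCA, the AP-1 motif, on either strand.
TXNRD1 window, chr12:104286782-104287081, plus strand: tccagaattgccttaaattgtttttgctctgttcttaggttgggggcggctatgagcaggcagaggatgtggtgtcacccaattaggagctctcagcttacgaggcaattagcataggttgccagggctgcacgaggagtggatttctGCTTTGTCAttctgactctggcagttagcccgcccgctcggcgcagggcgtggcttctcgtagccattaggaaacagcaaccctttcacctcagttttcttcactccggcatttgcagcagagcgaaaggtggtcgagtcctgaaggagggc
PRR5 window, chr22:44676835-44677134, plus strand: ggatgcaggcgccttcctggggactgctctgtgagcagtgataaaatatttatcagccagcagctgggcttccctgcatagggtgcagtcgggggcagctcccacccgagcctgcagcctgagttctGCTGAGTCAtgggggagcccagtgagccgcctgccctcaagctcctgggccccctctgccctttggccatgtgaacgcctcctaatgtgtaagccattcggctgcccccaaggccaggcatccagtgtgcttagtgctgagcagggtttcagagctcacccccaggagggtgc
ZBTB20 window, chr3:114624896-114625195, minus strand: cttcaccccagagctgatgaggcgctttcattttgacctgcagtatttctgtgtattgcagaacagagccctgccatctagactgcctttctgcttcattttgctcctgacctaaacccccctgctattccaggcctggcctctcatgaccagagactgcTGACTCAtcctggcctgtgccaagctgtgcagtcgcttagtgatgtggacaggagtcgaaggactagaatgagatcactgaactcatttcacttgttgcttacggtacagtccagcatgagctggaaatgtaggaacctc

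The TXNRD1 window held GCTTTGTCA, the reverse complement of TGACAAAGC, centred 33 bp from the summit. In the PRR5 window GCTGAGTCA, the reverse complement of TGACTCAGC, was centred 7 bp from the summit, and the AP-1 motif TGAGTCA lies within the same letters. The ZBTB20 window held the AP-1 motif TGACTCA 20 bp from the summit and no match to TGACNNNGC. Windows that overlapped regions in AHCYL1, ATRNL1 and PARN without holding the summit had no match to TGACNNNGC either. The PARN window held 2 AP-1 matches, centred 22 and 142 bp from the summit, and the AHCYL1 and ATRNL1 windows held none. Over all 35116 RefSeq windows of the same length, 13.3% held TGACNNNGC and 7.71% held TGANTCA. TGACTCAGC matches both motifs and stood in 0.561% of the windows. Among regions outside dense megabases with their summit in a window, TGACNNNGC was present for 2 of the 3 gained gene-body regions, 7 of the 8 other gained regions and 28 of the 37 remaining regions. A match is a run of letters in a window and was not tested as a binding site.

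TXNRD1, which encodes the selenoprotein thioredoxin reductase 1, was the NRF2 target gene with more than 1 gained gene-body region. The gene spans 104215779 to 104350307 on chromosome 12. The region at the internal start shown above (104286800 to 104287088) had 16 and 17 tags at its summit in CDDO-Im 1 and 2. A tag is a sequenced fragment counted at the summit, recovered from the deposited peak statistics. That region lay 71188 bp from the 5′ end of TXNRD1 and 65 bp from the internal transcript start. The other (104219368 to 104219681) had 16 and 22 tags in CDDO-Im 1 and 2 and lay 3745 bp from the 5′ end. The tags were thus alike between the CDDO-Im libraries at both places, and neither vehicle library listed a peak at either. Absence from a vehicle list is not a tag count of 0, because each library listed peaks only from 4 tags upward.

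**Figure D1:**
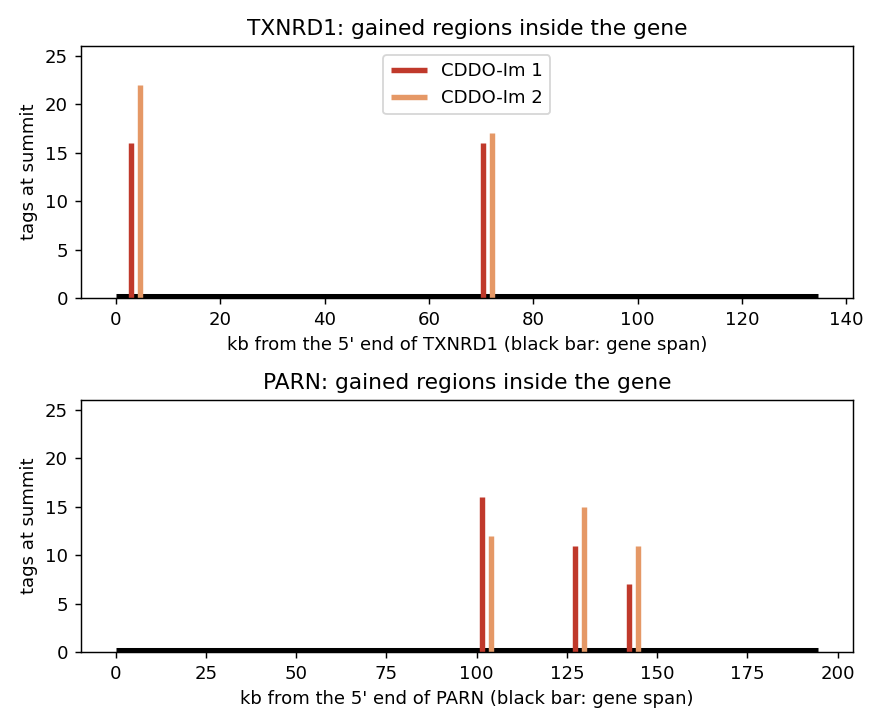
Tags at the summit (y axis) of the gained regions inside TXNRD1 (top) and PARN (bottom) against distance from the 5′ end of the gene in kb (x axis), with dark red for CDDO-Im 1 and orange for CDDO-Im 2, drawn slightly apart. TXNRD1 held 2 regions with 16 to 22 tags and PARN 3 regions with 7 to 16 tags, and no vehicle library listed any of them.

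PRR5, a subunit of the mTOR complex that phosphorylates AKT, had 18 and 27 tags in CDDO-Im 1 and 2 at its internal start (chromosome 22, 44676796 to 44677218), 112 bp from that start. ZBTB20, a zinc finger transcriptional repressor, had 14 and 15 tags at its internal start (chromosome 3, 114624849 to 114625181), 67 bp from that start. AHCYL1, a regulator of the inositol trisphosphate receptor, had a region whose summit was 94 bp from an internal start but outside the window, with 25 and 33 tags. Counting every RefSeq start, 9 of the 561 gained gene-body regions off chromosome 8 (1.60%) lay within 1000 bp of a transcript start. The same share was 2.29% for gained regions outside genes and 12.5% for the gained regions inside a gene and within 2500 bp of a gene end. Chromosome 8, with 31 gained gene-body regions, has no windows in the table.

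Of 103 genes in 7 target lists matched to RefSeq, 4 (TXNRD1, EPHX1, ABCC3 and NQO2) held one, or 3.88%. Over all 19970 protein-coding genes the share was 2.89%, and over the 16809 genes longer than 5000 bp, the shortest that can hold such a region, it was 3.44%. Of the target genes, 92 are longer than 5000 bp, so the count to set beside 3.44% is 4 of 92. The target genes have a median length of 18905 bp, against 24190 bp over all protein-coding genes, and the shares are not matched for length. With peaks of a −log10 q of at least 10 alone, 7 of the 103 target genes held one, beside 375 of all 19970 genes. How the target genes compare with genes in general thus depends on the peak threshold, and no test of the lists was made. EPHX1, the microsomal epoxide hydrolase, had 18 and 25 tags in CDDO-Im 1 and 2 (chromosome 1, 225817653 to 225818040), 7701 bp from the nearest gene end. ABCC3, an efflux pump for organic anion conjugates, had 14 and 16 tags (chromosome 17, 50661778 to 50662115). NQO2, a quinone reductase, had 9 and 16 tags (chromosome 6, 3005131 to 3005402), so its signal was the weakest of the 4 genes in CDDO-Im 1.

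The remaining target lists had none. Glutathione genes (0 of 22), heme and iron genes (0 of 13), NADPH genes (0 of 9), autophagy and proteasome genes (0 of 10) and NRF2 regulators (0 of 13) held no gained gene-body region, and thioredoxin genes held them in 1 of 14 and detoxification genes in 3 of 22. Several of these genes had gene-body regions that the vehicle libraries also listed, which keeps them out of the gained set. TKT, transketolase of the pentose phosphate pathway, had 35 and 64 tags in the CDDO-Im libraries, against 10 and 12 in the vehicle libraries (chromosome 3, 53236143 to 53236609). AKR1C3, an aldo-keto reductase, had 38 and 70 tags with CDDO-Im, against 16 and 6 with vehicle. ABCG2, a drug efflux pump, had 20 and 37 tags with CDDO-Im and 9 in vehicle 2, with no peak in vehicle 1. SQSTM1 had 23 and 53 tags with CDDO-Im, against 9 and 6 with vehicle (chromosome 5, 179820245 to 179820871). SLC48A1 had 22 and 44 tags with CDDO-Im, against 11 and 10 with vehicle (chromosome 12, 47775469 to 47775867). A further SLC48A1 region had 11 and 22 tags with CDDO-Im and 8 in vehicle 2, with no peak in vehicle 1. In each of these genes, named after their values were seen, every CDDO-Im value lay above every listed vehicle value of the same region. Target genes also held gene-body regions that vehicle 2 alone listed, with 8 tags in PTGR1, 5 in ATG5 and 4 in SLC7A11. Regions that a single CDDO-Im library listed are likewise outside the gained set. In CDDO-Im 2 alone, MAFG held regions of 21, 15 and 17 tags. PSMA1 had 22 tags in that library, SLC7A11 13 at another place, AKR1B1 12, PGD 10, SQSTM1 10 outside its region given above and GSTM2 7. In CDDO-Im 1 alone, ABCC1 had 6 tags.

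Across the 592 gained gene-body regions the signal was modest and varied several-fold between regions. Summit tags ran from 5 to 38 in CDDO-Im 1, with a median of 11 and quartiles of 8 and 15. In CDDO-Im 2 they ran from 5 to 72, with a median of 16 and quartiles of 11 and 23. Both libraries reached 20 tags in 61 regions and both stayed under 10 in 73 regions. In 220 regions both CDDO-Im peaks had a deposited −log10 q of at least 10. Divided by the lowest background of each library (0.332 and 0.367 tags), the medians were 33.2 and 43.5. Gained regions outside genes had the same medians, 11 and 16 tags, and those inside a gene but near a gene end had 10 and 17.5. A difference in strength between these sets of regions was not tested, since regions of 1 library are not replicates.

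**Figure D2:**
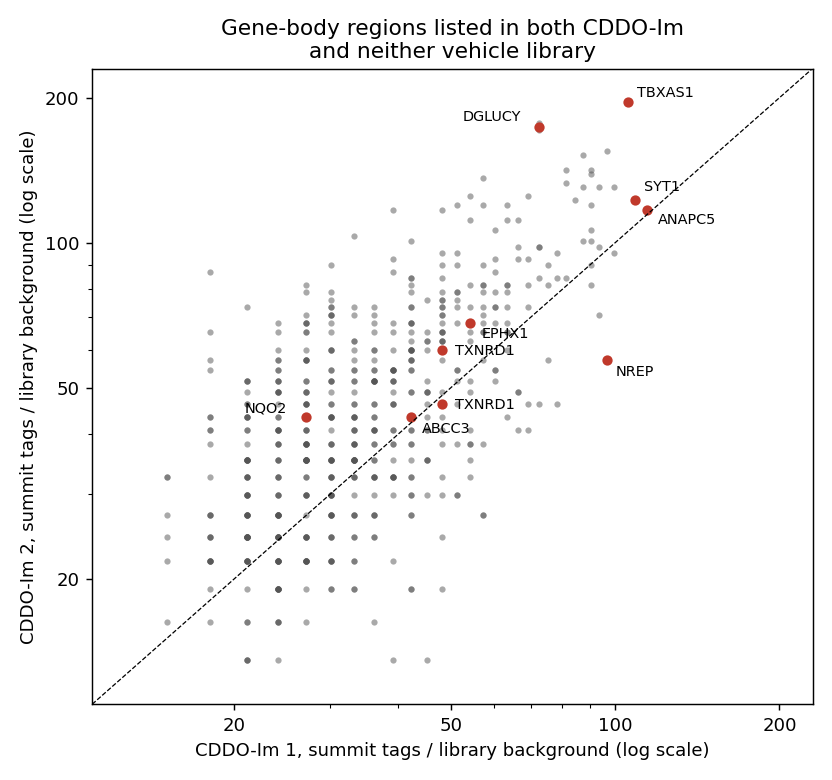
Summit tags divided by library background in CDDO-Im 1 (x axis) and CDDO-Im 2 (y axis), both on log scales, for the 592 gained gene-body regions, with named regions in red and the line of equal values dashed. Most points (435 of 592) lie above the line, and the columns of points come from whole tags at low values.

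CDDO-Im 2 carried the stronger signal at most gained gene-body regions. The ratio of CDDO-Im 2 to CDDO-Im 1 in tags over background had a median of 1.29 and quartiles of 0.985 and 1.63, and it was above 1 in 435 regions (73.5%). Over regions, the tags over background of these libraries had a Spearman coefficient of 0.61 and, on the log2 scale, a Pearson coefficient of 0.65 (n = 592). All regions come from the same 2 libraries and were kept only where both listed a peak. The coefficients are a description with no test. NREP, a regulator of neuronal regeneration, was among the regions that went the other way, with 32 and 21 tags in CDDO-Im 1 and 2. DGLUCY, the mitochondrial D-glutamate cyclase, had 24 and 64 tags in CDDO-Im 1 and 2.

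The CDDO-Im libraries placed their summits close together, but the rule asks for overlapping peaks and so limits this distance by itself. The distance between them had a median of 21 bp, with an upper quartile of 39 bp, and was at most 50 bp in 496 regions (83.8%). The largest distance was 200 bp. The joined regions were 206 to 665 bp wide, with a median of 326 bp. In the 30 strongest regions, the median distance was 11 bp and the largest 54 bp. Gene-body regions of all 4 libraries had a median distance of 11 bp between the CDDO-Im summits. The median was 21 bp for gained regions outside genes and 21.5 bp for those inside a gene but near a gene end.

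Gene-body regions that a vehicle library listed as well had more CDDO-Im tags than the gained ones. The 99 gene-body regions of all 4 libraries had medians of 34 and 53 tags in CDDO-Im 1 and 2, against 11 and 12 tags in vehicle 1 and 2. In tags over background, 96 of those 99 regions were higher in each CDDO-Im library than in either vehicle library, beside 87.0% of all 230 regions of 4 libraries. In the 143 gene-body regions of both CDDO-Im libraries and vehicle 2 the medians were 19 and 30 tags with CDDO-Im and 9 in vehicle 2. In the 48 of both CDDO-Im libraries and vehicle 1 they were 17.5 and 24.5 tags with CDDO-Im and 7.5 in vehicle 1. Gene-body regions in a single CDDO-Im list were weaker than the gained ones, with a median of 6 tags in 468 regions of CDDO-Im 1 and 8 tags in 1089 regions of CDDO-Im 2. The number of lists that hold a region depends on its tags, so this order is a description of how the set was chosen.

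**Figure D3:**
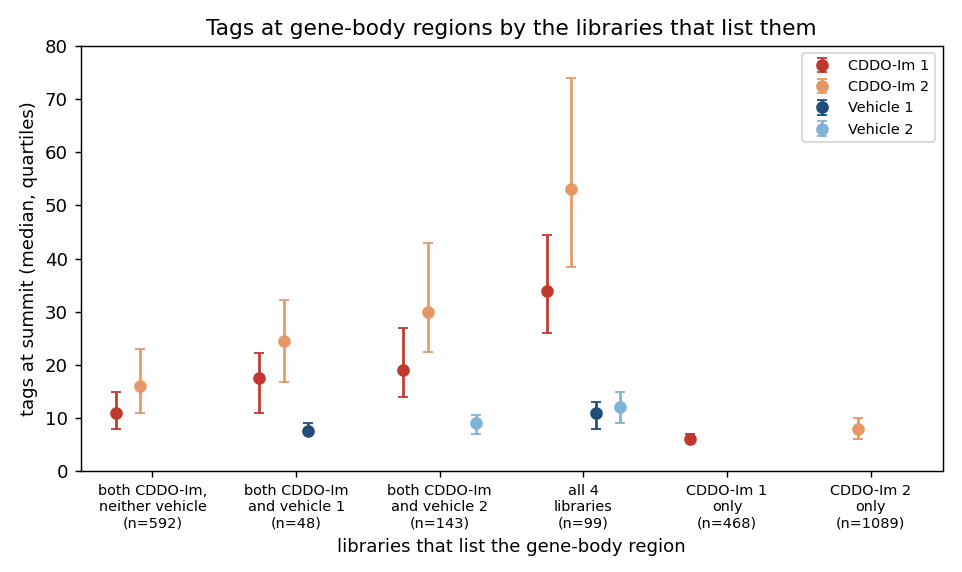
Tags at the summit (y axis; points are medians, bars the quartiles over regions) of gene-body regions, grouped by the libraries that list them (x axis, with the number of regions). The gained regions had medians of 11 and 16 tags, between those listed in 1 CDDO-Im library (6 and 8) and those of all 4 libraries (34 and 53 with CDDO-Im).

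One measure that the rule did not use was the share of peaks of each library that lay in gene bodies. Outside dense megabases it was 41.7% in CDDO-Im 1 (1356 of 3249 peaks) and 41.5% in CDDO-Im 2 (1991 of 4795), against 39.8% in vehicle 1 (484 of 1216) and 40.4% in vehicle 2 (516 of 1276). The group means were 41.6% ± 0.151 with CDDO-Im and 40.1% ± 0.450 with vehicle (SD, n = 2 each), a difference of 1.51 percentage points. The groups did not overlap, and an exact two-sided permutation test over the 4 libraries gave p = 0.33, the smallest that 2 against 2 allows. The exact 95% binomial interval was 40.1% to 42.9% for CDDO-Im 2 and 37.7% to 43.2% for vehicle 2, so these intervals overlap. With peaks of a −log10 q of at least 10 the difference was 6.04 percentage points, and with dense megabases kept it was 16.2, each again with an exact permutation p of 0.33. The libraries differ in how many peaks dense megabases hold. Outside them lay 3249 of 3882 peaks of CDDO-Im 1 and 4795 of 12244 of CDDO-Im 2. For vehicle 1 it was 1216 of 4098 and for vehicle 2 1276 of 7308. The part of these unequal counts in the 16.2 points was not tested.

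The 30 strongest gained gene-body regions, ranked by the lower of the authors' fold enrichments in the CDDO-Im libraries, had 21 to 38 tags in CDDO-Im 1 (median 28.5) and 27 to 72 in CDDO-Im 2 (median 43.5). They lay between 6839 and 219403 bp from the nearest gene end, and 29 of the 30 were higher over background in CDDO-Im 2. SYT1, the calcium sensor of synaptic vesicles, led the ranking with 109 and 122 times the library background in CDDO-Im 1 and 2. TBXAS1, thromboxane synthase, had the highest value of all in CDDO-Im 2, at 196 times background, against 106 in CDDO-Im 1.

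The genes at the other regions of the 30 have varied roles, and they are given here one by one with no count by role. GPAT3, an acyltransferase of triglyceride synthesis, had 26 and 35 tags in CDDO-Im 1 and 2 (chromosome 4, 83548417 to 83548859). MCCC1, a carboxylase subunit of leucine breakdown, had 30 and 51 tags (chromosome 3, 183081421 to 183081846). NPEPPS, the puromycin-sensitive aminopeptidase, had 33 and 48 tags. SECISBP2, which reads the selenocysteine signal in the messenger RNAs of selenoproteins such as TXNRD1, had 24 and 36 tags (chromosome 9, 89342233 to 89342633).

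BMAL1, a core transcription factor of the circadian clock, had 30 and 52 tags (chromosome 11, 13338412 to 13338809) and another, weaker region of 9 and 16 tags. JADE3, a scaffold of histone acetyltransferase complexes, had 26 and 31 tags. TNRC6A, a scaffold of microRNA silencing, had 30 and 44 tags and a further region of 14 and 22 tags. RSF1, a chromatin remodelling subunit, shares its region with the overlapping gene AAMDC, and it had 29 and 48 tags. STAU2, an RNA-binding protein of messenger RNA transport, had 28 and 45 tags.

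DST, a linker between cytoskeletal filaments, had 24 and 63 tags, the value in CDDO-Im 2 being the far higher. DSTN, an actin-depolymerising factor, had 27 and 49 tags, and SHROOM3, an actin regulator of cell shape, had 25 and 30. PRC1, which bundles microtubules at the spindle midzone, had 29 and 37 tags. STX18, a syntaxin of the endoplasmic reticulum, had 29 and 56 tags. PRKCA, protein kinase C alpha, had 27 and 52 tags (chromosome 17, 66507598 to 66507975) far inside a long gene, 205185 bp from the nearest gene end. COL21A1, a collagen, had 33 and 35 tags, and CDH9, a cadherin, had 22 and 36. ANAPC5, a subunit of the anaphase-promoting complex, had 38 and 43 tags, the highest count of the set in CDDO-Im 1. NUP93, a nuclear pore protein, had 31 and 48 tags, and RPH3A, a Rab effector of synaptic vesicles, had 31 and 36. The remaining genes of the 30, apart from DGLUCY above, were SH3TC1 (32 and 57), SCN9A (30 and 37), BLTP3A (27 and 31), SLC7A14 (23 and 34), LIMS4 (23 and 27), SNAP25 (24 and 31) and RNF121 (21 and 41). LIMS4 has a near-identical neighbouring copy, so its tags are uncertain.

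**Figure D4:**
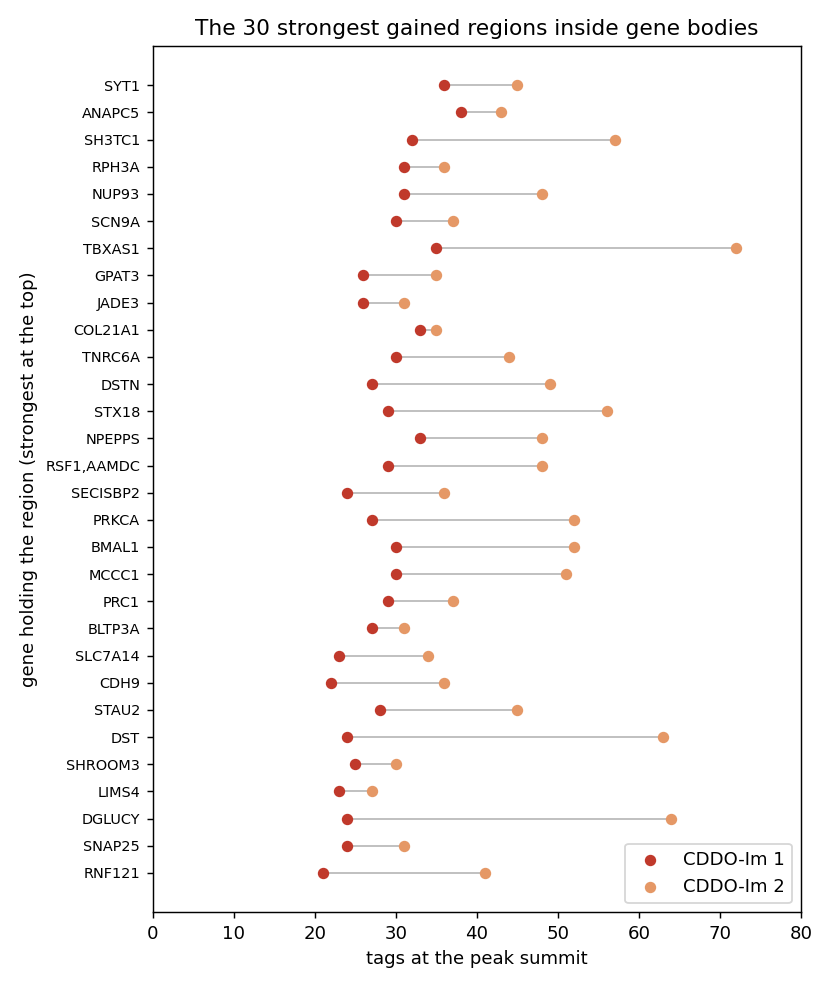
Tags at the summit (x axis) in CDDO-Im 1 (dark red) and CDDO-Im 2 (orange) for the 30 strongest gained gene-body regions, with the gene that holds each on the y axis and the strongest by lower fold enrichment at the top. All 30 lie at 21 tags or more in CDDO-Im 1 and 27 or more in CDDO-Im 2, and no vehicle library listed them.

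Genes that held gained gene-body regions were long. Their median length was 169933 bp, against 24190 bp over all protein-coding genes, and 70.2% of them exceeded 100 kb, against 16.8% of all genes. The share of genes holding one was 0.00% up to 5 kb, 0.189% up to 20 kb, 1.23% up to 50 kb and 3.54% up to 100 kb. It was 7.98% up to 200 kb and 29.0% above 400 kb, with the class between them in the plot of gene lengths. The requirement of 2500 bp to every gene end favours long genes by itself, and a region at any fixed density falls more often in a longer gene. Counts of gene families are therefore given below beside the 12.1% of all genes over 100 kb that held a region.

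**Figure D5:**
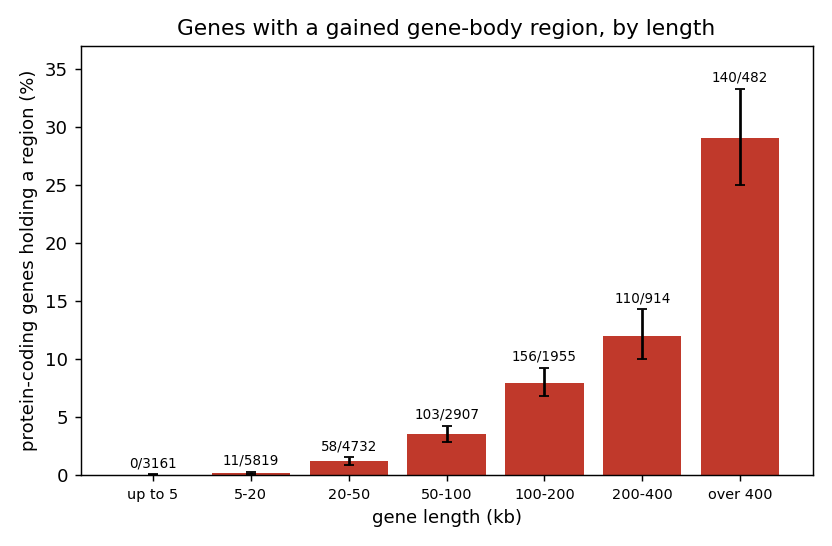
Percent of protein-coding genes that hold a gained gene-body region (y axis) by gene length in kb (x axis), with exact 95% binomial intervals and, above each bar, the genes holding one over the genes in the class. The share runs from 0 of 3161 genes up to 5 kb to 140 of 482 genes over 400 kb.

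Protein kinase C and diacylglycerol kinase genes, which make up opposing arms of diacylglycerol signalling, held gained regions in 5 of 19 genes, all 5 among the 12 over 100 kb. Besides PRKCA these were DGKD (15 and 16 tags in CDDO-Im 1 and 2), PRKCQ (9 and 13), PRKCH (11 and 9) and DGKI (9 and 13), so PRKCA was well above the rest. Phosphodiesterases of cyclic nucleotides held them in 4 of 22 genes (4 of 14 over 100 kb). PDE4D, which degrades cyclic AMP, had 2 regions, of 11 and 13 tags and of 10 and 10 tags, and PDE11A had 13 and 12. These families were not tested, and their counts are small.

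Ion channels held gained regions in genes of several kinds. Sodium channel subunits had them in 2 of 14 genes (2 of 8 over 100 kb), SCN9A and SCN2A, both on chromosome 2, and SCN2A had 18 and 46 tags. Potassium channels had them in 6 of 96 genes (6 of 30 over 100 kb). KCNH1, a voltage-gated channel, held 2 regions, of 17 and 19 tags and of 17 and 20 tags, while KCNMA1, the calcium-activated channel of large conductance, had 10 and 15 tags. Voltage-gated calcium channel subunits had them in 1 of 26 genes (1 of 14 over 100 kb), and TRP channels in 2 of 23 (1 of 9 over 100 kb). Glutamate receptors had them in 3 of 28 genes (3 of 19 over 100 kb), led by GRIK1, a kainate receptor subunit, with 21 and 30 tags. In the list of neuron and synapse genes, 5 of 17 held a region (4 of 12 over 100 kb). Besides SYT1, SNAP25 and RPH3A these were MAP2, a microtubule-associated protein (6 and 24 tags), and DLG2, a synaptic scaffold (8 and 6 tags). The list was written with earlier results of these data known. Its genes are mostly long, with a median of 429505 bp, but they differ in length, and SNAP25 spans 88589 bp. Over all protein-coding genes, 12.1% of those over 100 kb and 29.0% of those over 400 kb held a region. Neither class matches the lengths of the list, and the part of gene length in its count was not tested.

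Solute carriers had gained regions in 13 of 398 genes (8 of 63 over 100 kb), and SLC24A3, a potassium-dependent sodium and calcium exchanger (20 and 34 tags), and SLC16A12, a monocarboxylate transporter family member (17 and 44 tags), are members of this family besides SLC7A14. ABC transporters had them in 4 of 45 genes (1 of 15 over 100 kb), with ABCC3 the strongest by fold enrichment. Cadherins and protocadherins had them in 6 of 88 genes (6 of 48 over 100 kb). Receptor protein tyrosine phosphatases had 3 of 21 (3 of 17 over 100 kb), among them PTPRC, the leukocyte antigen CD45, with 6 and 16 tags. Zinc finger genes of the ZNF series, 33 of which exceed 100 kb, had 5 of 517, led by ZNF516 with 20 and 27 tags. Keratin and keratin-associated genes, with a median length of 1153 bp, had 0 of 152.

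Counts in the signalling and cell type lists are small. In the growth factor and RAS signalling list, MET, the hepatocyte growth factor receptor, had 16 and 31 tags. The TGF-beta and Wnt list had 1 of 18, TCF7L2, a transcription factor of Wnt signalling, with 9 and 19 tags. TBXAS1 was the single gene of 16 in the inflammation list. Markers of microglia (0 of 16), of mesenchymal cells (0 of 11) and of astrocytes and oligodendrocytes (0 of 12) held none, beside 2.89% of all protein-coding genes. Their median gene lengths were 12377.5, 36333 and 14520 bp. Lists this short cannot show a share below that of all genes.

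Most genes held a single gained region. Of the 578 genes, 549 held 1, 28 held 2 and PARN, a poly(A)-specific ribonuclease, held 3. The PARN regions (chromosome 16, 14486635 to 14486861, 14501512 to 14501892 and 14527357 to 14527712) had 7, 11 and 16 tags in CDDO-Im 1. In CDDO-Im 2 the same regions had 11, 15 and 12 tags. The first of them lay 264 bp from the start of LOC105371094, a long noncoding RNA gene. Other genes with 2 regions include FMN1, an actin-nucleating formin, with 16 and 21 tags at 1 and 12 and 19 at the other. TANC1, a synaptic scaffold, had 31 and 26 tags at 1 of its regions and 10 and 26 at the other. PLCB1, a phospholipase C, had 14 and 27 tags and 10 and 16 tags. Others were BMP6, CAST, CDH13, CEP112, CPA6, DNAH6, DPP10, FAT3, FRMPD4, IQCJ-SCHIP1, KAZN, LRP1B, MACROD2, MTUS2, NME7, SHTN1, SPIDR and STK32B, beside those named above. Where a gene held 2 or more regions these share the gene and are not independent.

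Among 470 regions in a single gene with a known strand, the median position was 49.2% of the gene length from the 5′ end, and 29.6% lay between 25% and 50% of the length. For the 1976 other gene-body regions these values were 49.1% and 27.7%. This difference in position was not tested. The median distance to the nearest gene end was 35379 bp, and 140 regions lay over 100000 bp from every gene end, the farthest, in PTPRD, at 903869 bp. The nearest vehicle-listed region had a median distance of 402364 bp, and it was within 10000 bp for 10 regions and within 1000 bp for 0. The rule itself leaves out any overlap with a vehicle peak. Vehicle lists were sparse, with 1216 and 1276 peaks outside dense megabases, and no distance for other regions is given for comparison. Of the 578 genes, 98 held a vehicle-listed gene-body region elsewhere in the gene, beside 818 of all 19970 protein-coding genes. Among genes over 100 kb the share was 22.4% of those with a gained region and 16.0% of all.

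Over the genome, gained gene-body regions occurred at 0.509 per megabase of eligible gene body. Chromosome 20 had the highest density, 1.08 per megabase (27 regions), and chromosome 19 the lowest, 0.162 (4 regions). On chromosome 20 gained regions were 32.9% of gene-body regions. The local background at the members on chromosome 20, with medians of 0.632 and 0.762 tags in CDDO-Im 1 and 2, was the highest of all chromosomes, against medians of 0.395 and 0.508 over all members. The part of this background in the density was not tested.

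Members near the thresholds show what the rule separates. Just inside the distance limit were regions in LSAMP (2548 bp from a gene end, 11 and 38 tags), PCNT (2553 bp, 9 and 10 tags) and NAP1L1 (2558 bp, 11 and 14 tags). Just outside were gained regions in SYT15 (2420 bp, 17 and 22 tags), FAM167A (2397 bp, 7 and 14 tags) and SMARCD3 (2363 bp, 10 and 23 tags). So few regions cannot show whether tags differ between the sides of the limit. The weakest members by lower fold enrichment were in LRFN2 (8 and 7 tags, the authors' lower fold enrichment 3.97), CDS2 (8 and 24 tags) and NUP214 (13 and 5 tags).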

How the data were processed

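The 4 deposited peak lists (2 CDDO-Im, 2 vehicle) were analysed; the input samples were not analysed here. The submitters' processing notes name MACS2 2.2.7.1, BWA 0.7.17 and bcl2fastq 2.15.0, and the builds hg38 and GRCm38, of which hg38, the human one, was taken. How controls, thresholds and duplicates were handled is not stated in those notes. Each list names its own library in its peak names, so calling was per library. The deposited fold enrichment (ratio), −log10 p, −log10 q and score (the −log10 q times 10 without its decimals) are the authors' values, and fold was used only to rank or describe peaks.

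Tags were solved for from the deposited −log10 p, read as a Poisson tail, and the deposited fold enrichment, read as (tags + 1)/(background + 1), accepting a misfit in −log10 p of up to 0.001 plus 0.0002 of it. Every peak gave whole tags, and 97.7% to 99.4% of peaks per library gave a single match. Library totals are not in the lists, so the lowest recovered background (0.332 and 0.367 tags for CDDO-Im, 0.316 and 0.315 for vehicle) stood for depth. Intervals cover counting error only.

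Genes, 19970 of them protein-coding, came from RefSeq on GRCh38.p14, and strands from the windows at transcript starts. Members, lists and tests were chosen with earlier results of these data known. The named regions are the 30 strongest, those in target-list genes, up to 4 per other list or family, the genes with the most members and those at the thresholds, all by lower fold enrichment. NREP, AHCYL1, PRR5 and the target genes whose regions vehicle libraries or a single CDDO-Im library list were named after their values were seen. Some genes that this rule names are not reported here. Tag recovery (993 of 993 simulated peaks) and the region rule (37 of 37 simulated members) were tested on simulated data. Alternatives were stricter peaks, other distances, dense megabases, joining and leaving out each library. Python 3.11.15, pandas 2.3.3, numpy 2.4.6 and scipy 1.17.1 were used.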

Additional observations from a re-analysis of the deposited data

How the results depend on the processing

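Keeping peaks from a −log10 q of 5 upward gave gained regions as 35.6% of gene-body regions and a median summit distance of 18 bp. From 10 upward there were 393 gained gene-body regions in 375 genes, 42.5% of gene-body regions, with median tags of 18 and 27, a summit distance of 16 bp and 7 NRF2 target genes. Stricter lists also drop weak vehicle peaks, which can turn a region into a gained one. Regions over 10000 bp from every gene end were 35.0% of gained regions, with 2 target genes, and with the ends of all RefSeq genes counted the share was 38.9%.

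Leaving out each library gave 640 to 1681 gained gene-body regions in 614 to 1431 genes, 23.5% to 65.2% of gene-body regions, and 4 to 11 target genes. The highest of these counts came without CDDO-Im 1, and without CDDO-Im 2 there were 1060 regions in 951 genes, since then 1 list stands for the group. The median tags of CDDO-Im 2 ran from 9 to 18. The share of gained regions in gene bodies stayed between 40.8% and 42.1% when a library was left out. The difference in the share of peaks inside gene bodies, 1.51 percentage points for CDDO-Im minus vehicle, was positive under all 11 alternatives. It ran from 1.19 to 16.2, the highest with dense megabases kept. With the replicate number as a block it was 1.51 (exact permutation p = 0.5, the smallest that 2 pairs allow). The labels do not say what a number shares, and same-numbered libraries did not deviate together over the 230 regions of all 4 libraries (correlation of -0.04). No depth beyond the recovered background is known, so weak vehicle signal may be unlisted.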

Other observations

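Single gained gene-body regions in 4 genes outside the lists used here are given as examples chosen after their values were seen, and they say nothing of a pathway. MGST3, a microsomal glutathione transferase, had 14 and 21 tags in CDDO-Im 1 and 2 (chromosome 1, 165650993 to 165651353). MSRA, which repairs oxidised methionine, had 14 and 18 tags. MAOB, a mitochondrial monoamine oxidase, had 15 and 15 tags, and ACOX3, a peroxisomal acyl-CoA oxidase, had 12 and 16. All 4 were listed in neither vehicle library, as the choice of regions requires.

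Of the 592 gained gene-body regions, 45 also lay within a long noncoding RNA gene and 2 within a pseudogene, and 0 within a microRNA gene. Gene-body regions listed in vehicle libraries and neither CDDO-Im library were 324 in vehicle 1 alone, 255 in vehicle 2 alone and 3 in both.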
